A study of Mus musculus with 45 samples.

Results

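The genes described here are 10 mouse genes of iron handling: *Fth1* and *Ftl1* (storage), *Tfrc*, *Steap3*, *Slc11a2* and *Slc11a1* (uptake and movement across membranes), *Slc40a1*, *Cp* and *Hamp* (export and its control) and *Hmox1* (heme breakdown). They were picked by name, though with earlier results of these data known, out of 42929 named gene identifiers that the 3 expression tables of the study share. All 10 are protein-coding genes listed in every table, and their levels are given for 7 groups of samples and 4 treatments.

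All mice were C57BL/6. Slice microglia were sorted from neonatal brain slices kept for 2 weeks in culture and then for 24 h in medium alone (9 samples), in 50 ng/mL TNF (11 samples) or in 20 ng/mL GM-CSF (9 samples), and each sample pools several slices, so a sample is not a single animal. Adult microglia were sorted from female mice of 10 to 15 weeks, 24 h after 1 mg/kg LPS (4 samples) or PBS (4 samples). Whole brain tissue was from equally old mice, with 4 samples taken 24 h after 1 mg/kg LPS and 4 from untreated mice. TNF and GM-CSF are cytokines that act on macrophages, and LPS is a cell wall component of Gram-negative bacteria that sets off inflammation. Both kinds of microglia were gated as CD11b high and CD45 intermediate cells. The brain tissue controls received no injection, so the LPS effect in tissue includes that of the injection itself. TNF and GM-CSF were set against the same 9 medium libraries, and their changes are therefore not independent of each other.

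Slice libraries held 5973364 to 9165485 counts, those of adult cells 11391564 to 14216005, and tissue libraries 8199863 to 10368578. Both microglia tables come from the same library kits but differ in read length, read pairing and sequencer, and the tissue table comes from another kit, so levels are compared by test only within a table. The 8 microglia markers summed to 9702 to 24027 CPM (counts per 1000000 of the library, after scaling) in slice cells and 38548 to 59086 in adult cells, against 234 to 399 in the tissue, and the 4 neuron markers stayed between 0.428 and 7.41 CPM in both microglia tables. In bulk samples, fewer cells of a type cannot be told apart from less RNA per cell.

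Iron enters most cells bound to transferrin, through the transferrin receptor, is reduced in the endosome and leaves it through a divalent metal transporter. What a cell does not use is stored in the shell of ferritin or leaves through ferroportin, and hepcidin, a peptide hormone, makes cells degrade ferroportin. During inflammation macrophages are known to hold iron back, with more ferritin and less ferroportin. Microglia are the macrophages of the brain and also take up heme from red cells, from which heme oxygenase frees the iron.

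Several of these transcripts carry an iron-responsive element, a hairpin with the loop CAGTGN and a bulged C that binds iron regulatory proteins. By textbook knowledge, binding near the start of ferritin and ferroportin transcripts blocks their translation, and binding behind the coding sequence of the transferrin receptor protects its transcript. GENCODE transcripts of the GRCm38 assembly (which mm10 follows) were searched for a C, 5 bases, CAGTGN and 5 bases that can all pair with the first 5, with G and U allowed to pair. Of 21901 protein-coding genes, 294 (1.34%) held a match in some coding transcript, and 4 of the 10 genes did, at 7 sites. The sites are shown because they mark the members whose translation or transcript stability iron is known to set through this hairpin, which transcript levels alone do not measure. Capitals mark the bulged C and the loop, and each site is written from 5′ to 3′ on the transcribed strand.
Fth1, 5′ UTR, exon 1, chr19:9982732-9982759, plus strand: ttcctgCttcaaCAGTGCttgaacggaa
Ftl1, 5′ UTR, exon 1, chr7:45459780-45459807, minus strand: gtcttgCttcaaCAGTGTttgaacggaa
Slc40a1, 5′ UTR, exon 1, chr1:45925466-45925493, minus strand: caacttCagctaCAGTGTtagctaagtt
Tfrc, 3′ UTR, exon 19, chr16:32631219-32631246, plus strand: aattatCggaagCAGTGCcttccataat
Tfrc, 3′ UTR, exon 19, chr16:32631598-32631625, plus strand: cattatCgggagCAGTGTcttccataat
Tfrc, 3′ UTR, exon 19, chr16:32631663-32631690, plus strand: ctatatCggagaCAGTGAtctccatatg
Tfrc, 3′ UTR, exon 19, chr16:32631710-32631737, plus strand: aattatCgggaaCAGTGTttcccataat

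*Slc11a2*, *Steap3*, *Slc11a1*, *Cp*, *Hamp* and *Hmox1* gave no match to this rule, which says only that these letters in this arrangement are not in their listed coding transcripts. A form of the *Slc11a2* transcript is known to carry such an element behind its coding sequence, so the rule does not find every known one.

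A gene was called when its adjusted p in edgeR's quasi-likelihood test was under 0.05 over all genes tested and its fold change was over 1.5. *Hamp* was at 0 counts in all 45 libraries, and a count of 0 allows up to 3 counts, or 0.211 to 0.502 CPM per library. It passed no filter on low counts. *Steap3* was listed at 0 in all 8 brain tissue libraries and passed the filter in the other tables. The adult microglia and tissue values are estimated counts from a tool not named in the sources used here. A listed 0 there, for *Hamp* as for *Steap3* in tissue, may be a failed estimate and not a low level. With TNF, 4 of the 9 members tested were called, *Fth1*, *Cp* and *Hmox1* higher and *Slc40a1* lower, where 20.8% of all genes tested were called (9.1% higher, 11.7% lower). With GM-CSF, *Cp* was called higher and *Slc40a1* lower, 2 of 9 against 10.8% of all genes (4.84% higher, 5.96% lower). In adult microglia, LPS moved 7 of 9, 6 higher and *Slc40a1* lower, against 27.4% of all genes (14.4% higher, 13% lower). In brain tissue, 3 of 8 were called, *Cp* and *Slc11a1* higher and *Slc40a1* lower, against 3.18% of all genes (2.63% higher, 0.55% lower). The median log2 fold change of the members tested was 0.45, -0.20, 1.23 and 0.20 in the same order, beside -0.03, -0.04, 0.01 and 0.00 over all genes. *Slc40a1* and *Cp* were the members called in all 4 comparisons, with the same sign in each, and *Ftl1* was called in none.

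Groups without any overlap were counted as well. With TNF, 4 of 9 members did not overlap with medium (*Fth1*, *Slc11a1* and *Hmox1* higher, *Slc40a1* lower), against 10.3% of all genes. With GM-CSF it was 0 of 9, against 5.6% of all genes (2.93% higher, 2.67% lower). LPS separated 7 of 9 members in adult microglia, where 47.5% of all genes did not overlap, and 4 of 8 in brain tissue (*Fth1*, *Slc11a1* and *Cp* higher, *Slc40a1* lower), where 16.9% did not.

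**Figure D1:**
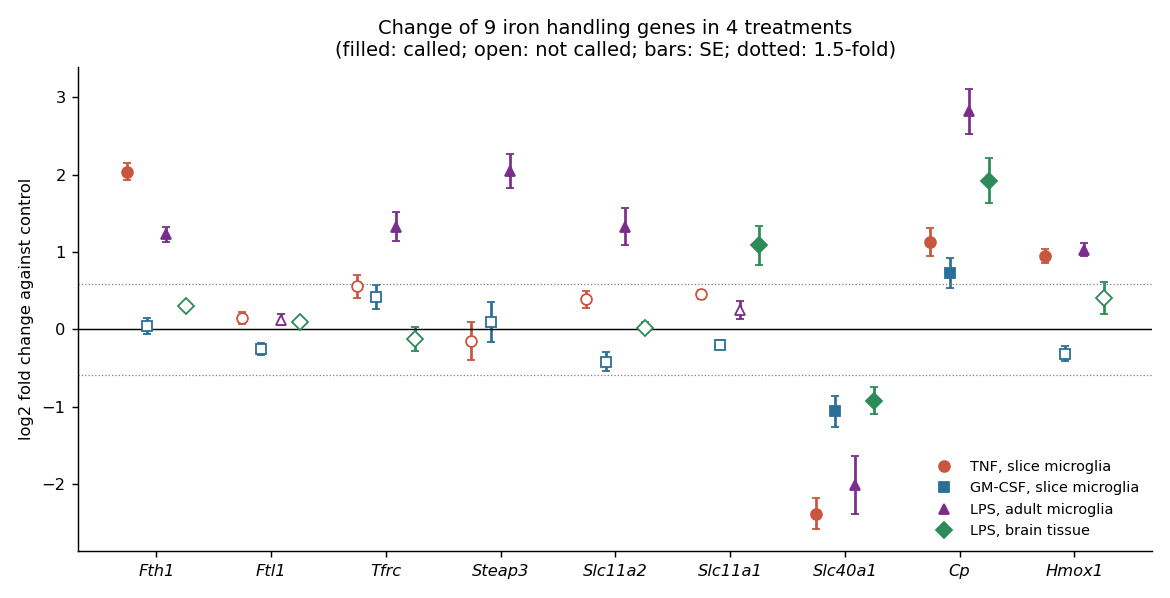
Log2 fold change (vertical axis, bars are the SE) of 9 iron handling genes in TNF (circles), GM-CSF (squares), LPS in adult microglia (triangles) and LPS in brain tissue (diamonds), each against its control. Filled symbols were called, open ones were not, and dotted lines mark 1.5-fold; *Slc40a1* lies below 0 and *Cp* above it in all 4, and *Ftl1* stays between -0.26 and 0.14.

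Ferritin stores iron in a shell of heavy and light chains, of which the heavy chain has the ferroxidase activity. *Fth1* (ENSMUSG00000024661, chromosome 19, 9980598 to 9985098, plus strand) held 5708, 8453 and 11082 CPM (lowest, median and highest of 9) in medium, 26398, 33194 and 42234 CPM with TNF (11), and 6989, 8627 and 9994 CPM with GM-CSF (9). All 11 TNF libraries were above every medium library, which 6.25% of all genes tested also showed, while GM-CSF and medium overlapped. TNF raised *Fth1* 4.10-fold (log2 2.04, SE 0.11, edgeR adjusted p 1.47e-17), and GM-CSF left it at log2 0.04 (SE 0.10, adjusted p 0.836). By counts, not per length, *Fth1* was the gene with the highest mean in the TNF group, with 3.46% of scaled counts, and rank 8 of 55450 in medium, with 0.842%. TNF against GM-CSF gave log2 2.00 (SE 0.11, adjusted p 2.98e-17). Within the title codes the TNF effect was log2 2.16 in codes 1A and 1B and 2.02 in codes 2A and 2B; the titles do not say what the codes stand for.

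*Ftl1* (ENSMUSG00000050708, chromosome 7, 45457944 to 45459884, minus strand), the light chain, ran from 2910 to 4209 CPM in medium, from 3177 to 4810 with TNF and from 2526 to 3657 with GM-CSF, and the 3 groups overlapped. Its log2 fold change was 0.14 with TNF (SE 0.08, adjusted p 0.142) and -0.26 with GM-CSF (SE 0.08, adjusted p 0.0167), the latter under the 1.5-fold limit. The ratio of *Fth1* to *Ftl1* counts averaged 8.54 ± 1.65 over the 11 TNF libraries (SD), against 2.28 ± 0.349 over the 9 in medium and 2.81 ± 0.273 over the 9 of GM-CSF. It lay between 6.82 and 12.7 in the TNF libraries and between 1.84 and 3.35 in the other slice libraries.

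In adult microglia *Fth1* was at 1117, 1108, 1130 and 1183 CPM in the 4 PBS libraries (replicates 1 to 4) and at 2906, 2200, 2494 and 3049 CPM in the 4 LPS libraries. Every LPS library was above every PBS library, as in 24.1% of all genes tested there. The rise was 2.35-fold (log2 1.23, SE 0.10, edgeR adjusted p 1.75e-06). *Ftl1* was at 1333 ± 36.1 CPM (SD, n = 4) after PBS and 1455 ± 124 (n = 4) after LPS, with overlap (log2 0.13, SE 0.07, adjusted p 0.166). The ratio of *Fth1* to *Ftl1* counts rose from 0.832 to 0.870 after PBS to 1.55 to 2.16 after LPS, without overlap.

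In brain tissue *Fth1* was at 1175, 1274, 1185 and 1282 CPM untreated and at 1469, 1549, 1453 and 1577 CPM after LPS. The groups did not overlap, as in 9.09% of all genes in this direction, but the 1.23-fold difference (log2 0.30, SE 0.04, edgeR adjusted p 0.000121) was under the fold limit. *Ftl1* was at 198 ± 7.87 CPM (SD, n = 4) untreated and 212 ± 8.5 (n = 4) after LPS (log2 0.10, SE 0.04, adjusted p 0.165). The LPS effect on *Fth1* was larger in adult microglia than in tissue by 0.92 log2 units (SE 0.12, adjusted p 5.44e-06 in the interaction test), and for *Ftl1* the difference was 0.02 (SE 0.09, adjusted p 0.984). In that test 5 of the 9 members fitted were called, against 19.7% of all genes (9.1% more positive, 10.6% more negative). The 9 include *Steap3*, whose difference could not be estimated because it was listed at 0 in tissue.

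**Figure D2:**
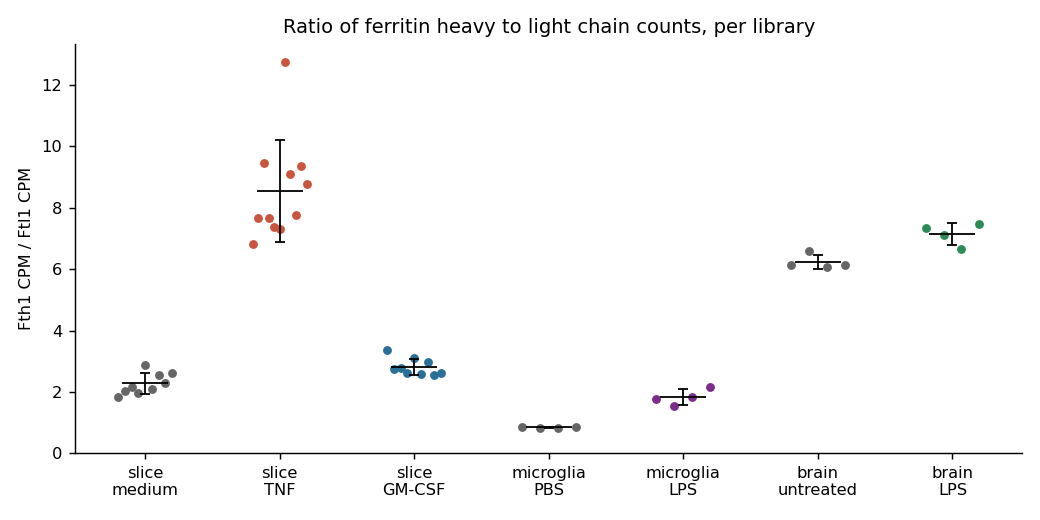
Ratio of *Fth1* to *Ftl1* CPM (vertical axis) in each library of the 7 groups; points are libraries, and the bar and whiskers are the mean and SD. The 11 TNF libraries lie between 6.82 and 12.7, above all other slice libraries, and the 4 LPS microglia libraries between 1.55 and 2.16, above the PBS ones.

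Ferritin has many processed copies in the genome whose reads may be shared with it. *Ftl1-ps1* held 0.293% to 0.500% of the count of *Ftl1* in slice libraries, and the share was 1.16% to 1.83% in those of adult cells and 0.664% to 2.56% in those of tissue. The counts of *Fth-ps2* were at most 0.0324% of those of *Fth1* in every library. The counting of reads with several matches is not stated in the sources used here.

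**Figure D3:**
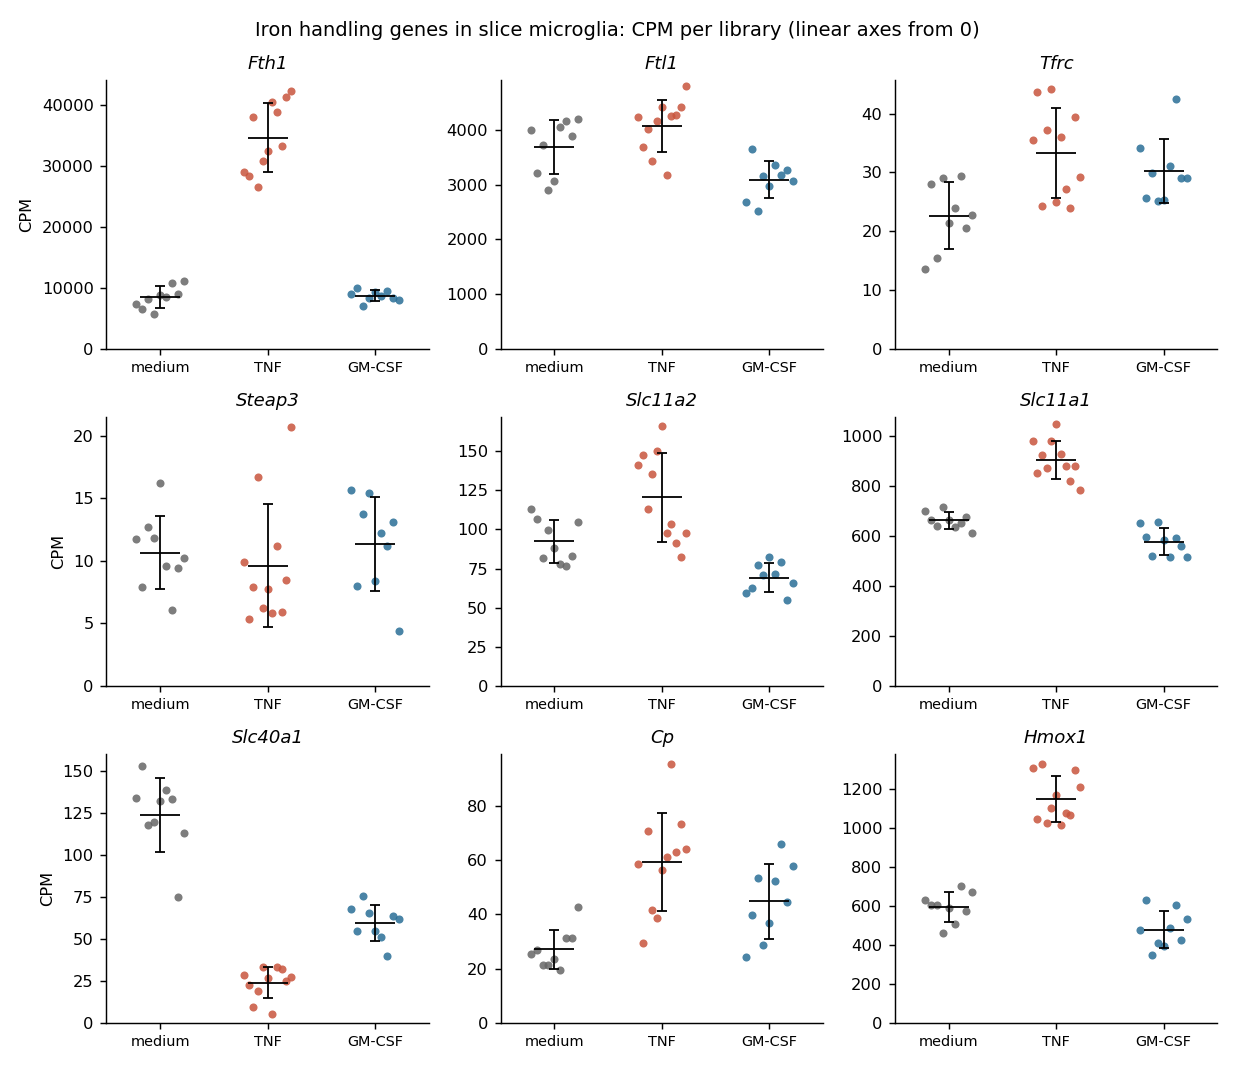
CPM (vertical axes, linear from 0) of 9 iron handling genes in each slice microglia library in medium (9), TNF (11) and GM-CSF (9); points are libraries, and the bar and whiskers are the mean and SD. *Fth1*, *Hmox1* and *Slc11a1* in TNF lie above, and *Slc40a1* below, all medium libraries.

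Among the uptake genes, the transferrin receptor gene *Tfrc* (ENSMUSG00000022797, chromosome 16, 32608920 to 32632794, plus strand), which carries 4 of the elements shown above, held 13.5, 22.7 and 29.4 CPM (lowest, median, highest) in medium, 24.0, 35.5 and 44.3 CPM with TNF and 25.2, 29.1 and 42.6 CPM with GM-CSF. The groups overlapped, and neither change passed the fold limit (TNF log2 0.56, SE 0.15, adjusted p 0.00245; GM-CSF log2 0.42, SE 0.15, adjusted p 0.0411). With codes 1A and 1B alone the TNF effect was log2 0.71 and was called (adjusted p 0.0245), and with codes 2A and 2B alone it was 0.40 and was not (adjusted p 0.132). In adult microglia *Tfrc* was at 24.5, 22.3, 20.8 and 18.5 CPM after PBS and at 50.0, 36.7, 55.6 and 72.7 CPM after LPS. The LPS libraries were all higher, 2.50-fold on the fitted scale (log2 1.32, SE 0.19, edgeR adjusted p 0.00022). In brain tissue, where it held more CPM than in any microglia library, it went from 171.9, 158, 157 and 137 CPM untreated to 119, 136, 189.8 and 129.8 CPM after LPS. These overlapped (log2 -0.12, SE 0.16, adjusted p 0.712). LPS replicate 3 (189.8 CPM) was above every untreated library, and the other 3 LPS libraries were below every untreated one. Over 17 alternative fits the tissue effect ran from log2 -0.29 to -0.04, with a lowest adjusted p of 0.0298, and stayed under the fold limit. The difference between the LPS effects in microglia and tissue was 1.44 log2 units (SE 0.25, adjusted p 0.000394).

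*Steap3* (ENSMUSG00000026389, chromosome 1, 120190757 to 120272705, minus strand) encodes a ferrireductase of endosomes. It was low in slice microglia, with 4.37 to 20.7 CPM (30 to 145 counts) over the 3 groups, and moved by log2 -0.15 (SE 0.24) with TNF and 0.09 (SE 0.25) with GM-CSF (adjusted p 0.670 and 0.837). In adult microglia it was at 1.87, 2.16, 1.53 and 2.31 CPM after PBS (19 to 32 counts) and at 9.33, 7.36, 9.44 and 6.48 CPM after LPS (86 to 128 counts). Every LPS library was higher than every PBS library, by 4.13-fold on the fitted scale (log2 2.04, SE 0.21, edgeR adjusted p 1.23e-05). With all tissue libraries listed at 0, its LPS effect in microglia could not be compared with one in tissue.

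*Slc11a2* (ENSMUSG00000023030, chromosome 15, 100387898 to 100425072, minus strand) encodes divalent metal transporter 1, which moves ferrous iron out of endosomes. It held 76.6, 87.8 and 113 CPM (lowest, median, highest) in medium, 82.2, 113 and 166 CPM with TNF and 54.6, 70.7 and 82.5 CPM with GM-CSF. TNF and GM-CSF moved it in opposite directions, each under the fold limit (log2 0.39, SE 0.11, adjusted p 0.00621 and log2 -0.42, SE 0.12, adjusted p 0.00818). Over 12 alternative fits the TNF effect ran from log2 0.13 to 0.51 and that of GM-CSF from -0.57 to -0.27. Neither passed the adjusted p in every one. In codes 2A and 2B the TNF libraries (82.2 to 103.5 CPM) overlapped with the medium ones (76.6 to 105 CPM). TNF against GM-CSF was 1.75-fold (log2 0.80, SE 0.12, edgeR adjusted p 6.76e-07). That difference moved with the code in the title. Among 1A and 1B libraries it was log2 1.08 (adjusted p 9.5e-07), and among 2A and 2B libraries 0.40 (adjusted p 0.0298) and under the fold limit. The 6 TNF libraries of codes 1A and 1B held 113 to 166 CPM and the 5 of codes 2A and 2B held 82.2 to 103.5 CPM, without overlap.

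In adult microglia *Slc11a2* was at 59.7, 45.8, 47.8 and 42.8 CPM after PBS and at 157, 76.0, 106 and 152 CPM after LPS. The LPS libraries were all higher (2.51-fold, log2 1.33, SE 0.24, edgeR adjusted p 0.00197). In brain tissue it ran from 59.9 to 67.6 CPM untreated and from 58.3 to 74.1 CPM after LPS (log2 0.02, SE 0.07, adjusted p 0.907). The LPS effects differed between microglia and tissue by 1.30 log2 units (SE 0.26, adjusted p 0.00135).

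*Slc11a1* (ENSMUSG00000026177, chromosome 1, 74375195 to 74386062, plus strand) encodes a metal transporter of the phagosomes of macrophages and neutrophils. Among the slice groups it held 613, 666 and 719 CPM (lowest, median, highest) in medium, 783, 882 and 1052 CPM with TNF and 517, 585 and 658 CPM with GM-CSF. TNF libraries were all above medium ones, but the difference was 1.37-fold, under the limit (log2 0.45, SE 0.06, adjusted p 3.37e-08), and that with GM-CSF was log2 -0.20 (SE 0.06, adjusted p 0.0104). The 6 neutrophil markers summed to 0.834 to 15.6 CPM in medium, 3.57 to 116 CPM with TNF, where 2 of 3 tested were called higher, and 3.19 to 40.6 CPM with GM-CSF. Their part was not tested. TNF against GM-CSF passed it at 1.57-fold (log2 0.65, SE 0.06, adjusted p 1.28e-11), and fell under it with total counts in place of TMM scaling (log2 0.48). Comparing TNF with GM-CSF, 5 of 9 members were called, *Fth1*, *Slc11a2*, *Slc11a1* and *Hmox1* higher and *Slc40a1* lower, against 16.2% of all genes (8.25% higher, 7.96% lower). Of these, *Fth1*, *Slc11a1*, *Hmox1* and *Slc40a1* did not overlap, 4 of 9 against 7.93% of all genes (5.3% higher).

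In adult microglia *Slc11a1* was at 429.5, 389.7, 395 and 395 CPM after PBS and 572, 363, 487 and 486 CPM after LPS. LPS replicate 2 was the lowest of all 8, and the groups overlapped (log2 0.25, SE 0.11, edgeR adjusted p 0.0922); without that library the difference was log2 0.36 (adjusted p 0.000961), still under the fold limit. In brain tissue *Slc11a1* was low, at 1.51, 2.82, 1.86 and 1.36 CPM untreated (13 to 29 counts) and 3.16, 4.01, 4.83 and 4.16 CPM after LPS (30 to 40 counts). The LPS libraries were all higher, 2.12-fold (log2 1.08, SE 0.25, adjusted p 0.0104). The 8 microglia markers summed to 266 to 301 CPM in untreated tissue. After LPS they summed to 234 CPM in replicate 3 and to 362 to 399 CPM in the others, above all untreated libraries. Replicate 3 also had the lowest *Fth1* and *Slc40a1* of the LPS tissue group and the highest values of the other members tested there. The 6 neutrophil markers summed to 0.503 to 1.55 CPM untreated and 3.06 to 7.75 CPM after LPS. The 5 monocyte and border macrophage markers summed to 4.32 to 4.97 and 5.32 to 10.0 CPM. Neutrophil markers called were 1 of 1 tested, and the part of microglia, neutrophils, monocytes and border macrophages in the *Slc11a1* rise was not tested. The interaction was -0.84 log2 units (SE 0.29, adjusted p 0.0313), and the call was lost on leaving out any 1 of adult LPS replicate 4, brain LPS replicates 3 and 4, and brain untreated replicates 1, 3 and 4 (adjusted p 0.0506 to 0.0828).

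**Figure D4:**
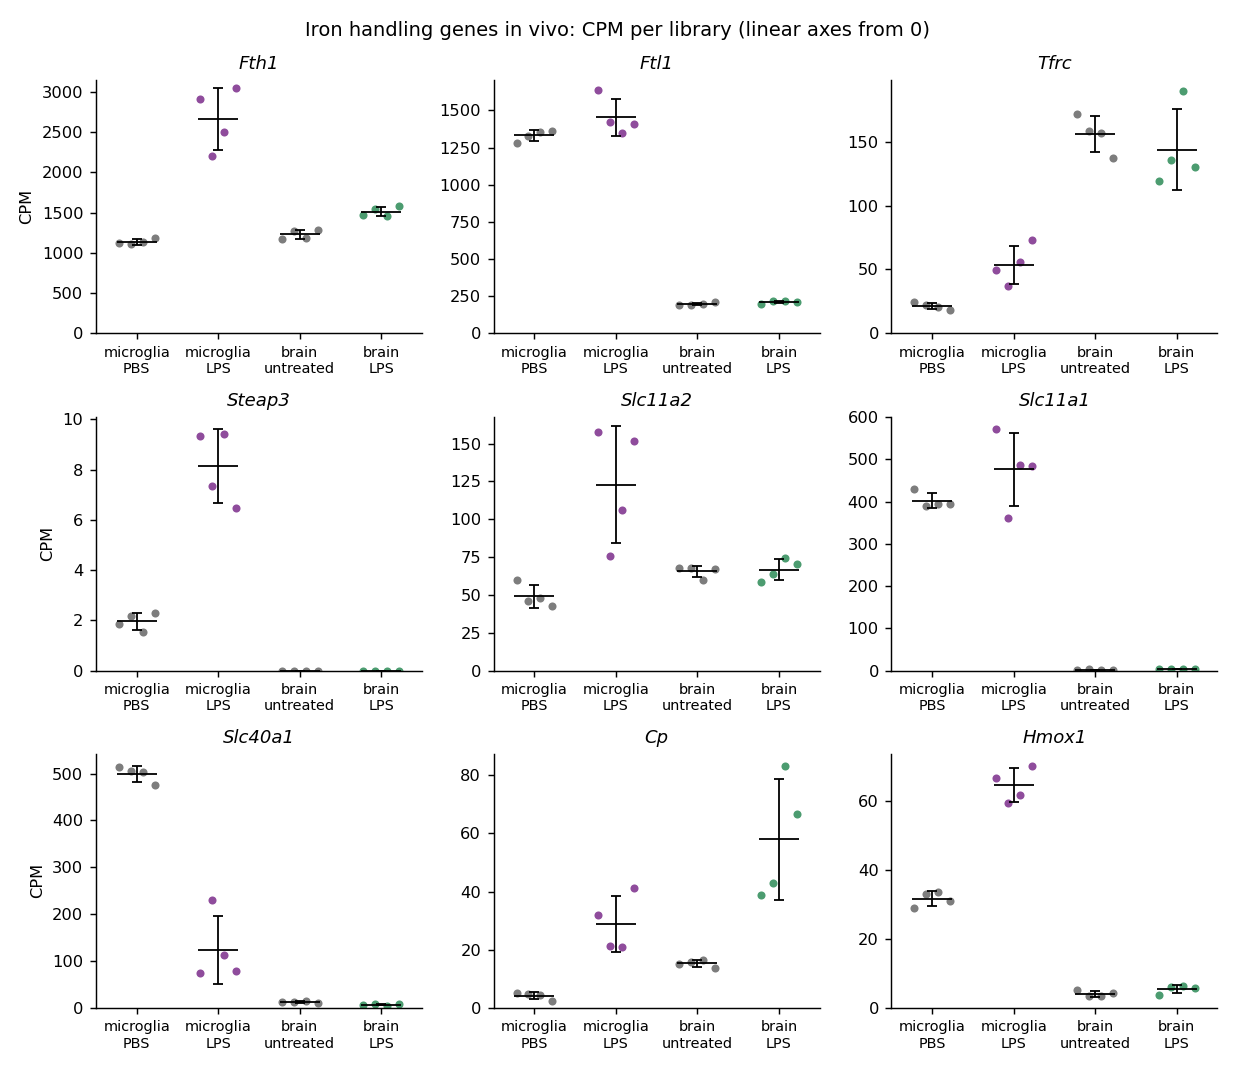
CPM (vertical axes, linear from 0) of 9 iron handling genes in each library of adult microglia (PBS and LPS) and brain tissue (untreated and LPS), 4 libraries a group; points are libraries, and the bar and whiskers are the mean and SD. *Slc40a1* falls from 475 to 513 CPM after PBS to 74.8 to 230 CPM after LPS in microglia, and *Steap3* is at 0 in all 8 tissue libraries.

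*Slc40a1* (ENSMUSG00000025993, chromosome 1, 45908068 to 45926523, minus strand) encodes ferroportin, the known exporter of iron from cells. In slice microglia it held 75.01, 132 and 152.7 CPM (lowest, median, highest) in medium, 5.08, 26.9 and 33.4 CPM with TNF and 39.8, 62.0 and 75.5 CPM with GM-CSF. All 11 TNF libraries were below all medium ones, which 4.01% of all genes also showed. The lowest were TNF replicates 7 and 3, at 5.08 and 9.71 CPM (36 and 79 counts), and the other 9 held 19.0 to 33.4 CPM. TNF lowered it 5.21-fold (log2 -2.38, SE 0.20, edgeR adjusted p 4.33e-12) and GM-CSF 2.09-fold (log2 -1.06, SE 0.20, adjusted p 0.000111). The GM-CSF group reached into the medium group only at medium replicate 8 (75.01 CPM). TNF libraries were 2.50-fold lower than GM-CSF ones (log2 -1.32, SE 0.20, adjusted p 1.47e-06), without overlap (2.63% of all genes in this direction). Within codes 1A and 1B and codes 2A and 2B the TNF effect was log2 -2.48 and -2.29, and that of GM-CSF was -0.99 and -1.11. The markers of microglia were lower as well in these groups: their sum was 17108 to 24027 CPM in medium, 9702 to 12586 with TNF and 12172 to 13746 with GM-CSF, and 4 of 8 were called lower with each cytokine. The 5 monocyte and border macrophage markers summed to 255 to 636 CPM in medium, 285 to 515 with TNF and 248 to 765 with GM-CSF. Of 3 tested, 2 were called lower with TNF and 0 with GM-CSF. The part of either set of cells in the fall of *Slc40a1*, or in the changes of other members, was not tested.

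In adult microglia *Slc40a1* was at 513, 505, 504 and 475 CPM after PBS and at 74.8, 230.1, 112 and 79.1 CPM after LPS. All LPS libraries were lower than all PBS libraries, as in 23.3% of all genes. The fall was 4.03-fold (log2 -2.01, SE 0.37, edgeR adjusted p 0.00314). The 8 microglia markers summed to 52726 to 59086 CPM after PBS and 38548 to 43269 CPM after LPS, without overlap, with 2 called higher and 1 lower; their part was not tested. LPS replicate 2 stood apart from the other 3 and was the LPS library closest to PBS, and it also had the lowest *Fth1*, *Tfrc*, *Slc11a2*, *Slc11a1* and *Hmox1* of the LPS group. Without it the fall was log2 -2.49 (SE 0.13, adjusted p 7.25e-08), and 7 members were called as before, beside 4044 of all 13225 genes.

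In brain tissue *Slc40a1* was at 12.9, 11.2, 15.1 and 10.97 CPM untreated and at 6.54, 8.13, 4.11 and 7.53 CPM after LPS (34 to 69 counts). LPS libraries were all lower, as in 7.81% of all genes, by 1.90-fold (log2 -0.92, SE 0.18, edgeR adjusted p 0.00334). The 4 oligodendrocyte markers summed to 4826 to 5180 CPM untreated and 3540 to 4094 CPM after LPS, with 2 of 4 called lower; their part was not tested. The difference of the LPS effects was -1.10 log2 units and did not pass (SE 0.55, adjusted p 0.166). Without adult LPS replicate 2 it was -1.58 (SE 0.25) and passed (adjusted p 9.25e-05).

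*Cp* (ENSMUSG00000003617, chromosome 3, 19957054 to 20009145, plus strand) encodes ceruloplasmin, a copper-bearing ferroxidase that helps ferroportin release iron and is known in brain mainly from astrocytes. Slice microglia held 19.6, 25.6 and 42.7 CPM (lowest, median, highest) in medium, 29.4, 61.1 and 95.4 CPM with TNF and 24.3, 44.5 and 66.0 CPM with GM-CSF. The ranges overlapped, with 8 of 11 TNF libraries above every medium library. TNF raised it 2.19-fold (log2 1.13, SE 0.18, edgeR adjusted p 5.2e-06) and GM-CSF 1.65-fold (log2 0.72, SE 0.19, adjusted p 0.00401), a difference between the cytokines of log2 0.41 that was not called (SE 0.18, adjusted p 0.0874). The GM-CSF call was lost with codes 1A and 1B alone (log2 0.62, adjusted p 0.106).

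After LPS, *Cp* in adult microglia went from 4.95, 4.74, 4.35 and 2.31 CPM (32 to 69 counts) to 31.8, 21.2, 21.0 and 41.4 CPM (248 to 562 counts). It was the member with the largest fold change of those tested in this comparison, 7.06-fold (log2 2.82, SE 0.29, edgeR adjusted p 3.72e-05), and the groups did not overlap. In brain tissue it went from 15.0, 15.7, 16.6 and 13.8 CPM to 38.9, 43.0, 83.3 and 66.6 CPM, again without overlap (3.78-fold, log2 1.92, SE 0.29, adjusted p 0.00864). The interaction was 0.89 log2 units (SE 0.42, adjusted p 0.130), and passed only without brain LPS replicate 3 among the libraries left out (1.11, adjusted p 0.0405).

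Markers of other cells were read beside *Cp*. In slice microglia the 4 astrocyte markers summed to 49.2 to 91.8 CPM in medium, 16.9 to 69.9 CPM with TNF and 28.5 to 54.1 CPM with GM-CSF. Of these 4, 1 was called lower with each cytokine. The choroid plexus markers summed to 1.75 to 34.5, 2.95 to 129.7 and 0.267 to 32.3 CPM in the same order. In adult microglia the 4 astrocyte markers summed to 254 to 279 CPM after PBS and 145 to 180 CPM after LPS, with 1 of 2 tested called lower. The choroid plexus markers stayed at 0.0856 to 3.89 CPM over both groups. In brain tissue the astrocyte markers summed to 849.8 to 916 CPM untreated and 965 to 1186 CPM after LPS, with 1 of 4 called higher. The endothelial ones summed to 126 to 144 and 140.1 to 199 CPM with 2 of 4 called higher. The choroid plexus ones summed to 325 to 440.5 and 393 to 477 CPM with 0 of 4 called by edgeR. The part of these cells in the rises of *Cp* was not tested in any of the 3 tables.

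*Hamp* (ENSMUSG00000050440, chromosome 7, 30942368 to 30944032, minus strand), the hepcidin gene, was at 0 counts in all groups, and its neighbour copy *Hamp2* was at 0 in all microglia libraries and at 0 to 2 counts in brain tissue. At this depth the transcript was not detected in any treatment, so no change could be measured. In adult microglia and tissue, where counts are estimated, a failed estimate cannot be told apart from a low level.

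*Hmox1* (ENSMUSG00000005413, chromosome 8, 75093621 to 75100589, plus strand) encodes heme oxygenase 1, the inducible enzyme that opens heme and releases its iron. It held 458, 602 and 700.3 CPM (lowest, median, highest) in medium, 1017, 1103 and 1329 CPM with TNF and 346, 474 and 628 CPM with GM-CSF. The TNF libraries were all above the others, and GM-CSF and medium overlapped. TNF raised it 1.94-fold (log2 0.95, SE 0.09, edgeR adjusted p 8.66e-11), and GM-CSF gave a log2 fold change of -0.31, under the fold limit (SE 0.09, adjusted p 0.0109). TNF against GM-CSF was 2.41-fold (log2 1.27, SE 0.09, adjusted p 1.18e-13), with 1.33 in codes 1A and 1B and 1.20 in codes 2A and 2B.

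In adult microglia *Hmox1* was at 29.002, 32.9, 33.6 and 31.0 CPM after PBS and at 66.6, 59.2, 61.7 and 70.1 CPM after LPS, without overlap (2.04-fold, log2 1.03, SE 0.08, edgeR adjusted p 1.97e-06). In brain tissue it was low, at 5.13, 3.40, 3.31 and 4.28 CPM untreated (32 to 51 counts) and 3.59, 5.89, 6.16 and 5.84 CPM after LPS (34 to 52 counts), with overlap (log2 0.41, SE 0.20, adjusted p 0.244). The LPS effects differed by 0.61 log2 units (SE 0.20, adjusted p 0.0257). This call was lost without adult LPS replicate 4, adult PBS replicate 1, brain LPS replicate 1, or brain untreated replicates 1 or 4, each left out singly (0.46 to 0.58).

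Markers of other cells also differed between LPS and PBS microglia. The 6 neutrophil markers summed to 40.6 to 83.6 CPM after PBS and 1.61 to 8.46 CPM after LPS with all 5 tested called lower, the 5 red cell markers to 6.77 to 227 and 4.22 to 24.2 CPM with 2 of 4 called lower, and the 4 endothelial ones to 28.9 to 36.3 and 10.2 to 13.7 CPM. The monocyte and border macrophage markers rose from 15.6 to 21.2 CPM to 27.6 to 39.3 CPM, with 2 of 3 tested called higher and 1 lower. The part of these cells in the member changes was not tested.

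Levels were compared between genes per kilobase of exon. The length covers all exons of a gene's listed transcripts, 3.469 kb for *Fth1* and 1.34 kb for *Ftl1*, and may exceed that of a single transcript. By counts *Fth1* was 1.84 to 2.88 times *Ftl1* in medium and 0.832 to 0.870 times after PBS in adult microglia. The place of *Fth1* below *Ftl1* in medium, and the size of its gap after PBS, therefore depend on these lengths. In medium the order by mean was *Ftl1* (2758 CPM per kb), *Fth1* (2429), *Hmox1* (339), *Slc11a1* (179), *Slc11a2* (14.5), *Slc40a1* (13.8), *Tfrc* (3.66), *Cp* (2.83) and *Steap3* (1.86). The library ranges of *Ftl1* and *Fth1*, of *Slc11a2* and *Slc40a1*, of *Tfrc* and *Cp*, and of *Cp* and *Steap3* overlapped, and those of the other neighbours did not. With TNF, *Fth1* came first (9967 CPM per kb, against 3047 for *Ftl1*, without overlap) and *Slc40a1* went from rank 6 to rank 8. *Fth1* also came first by mean with GM-CSF (2495 CPM per kb, against 2310 for *Ftl1*), with overlap.

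In adult microglia after PBS the order was *Ftl1* (995 CPM per kb), *Fth1* (327), *Slc11a1* (109), *Slc40a1* (55.5), *Hmox1* (18.1), *Slc11a2* (7.72), *Tfrc* (3.48), *Cp* (0.427) and *Steap3* (0.344), and of these neighbours only *Cp* and *Steap3* overlapped. *Slc40a1* went from rank 4 after PBS to rank 6 after LPS, at 13.8 CPM per kb, behind *Hmox1* (36.8) and *Slc11a2* (19.3). The LPS ranges of *Slc11a2* (11.96 to 24.8 CPM per kb) and *Slc40a1* (8.31 to 25.6) overlapped, so their order is not set beyond the spread. In untreated brain tissue *Fth1* (354 CPM per kb) was above *Ftl1* (147), and *Tfrc* was at rank 3 (25.2), before *Slc11a2* (10.3), *Hmox1* (2.30), *Cp* (1.596), *Slc40a1* (1.39) and *Slc11a1* (0.509). There *Cp* and *Slc40a1* overlapped. After LPS *Cp* reached 6.06 CPM per kb and stood at rank 5.

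**Figure D5:**
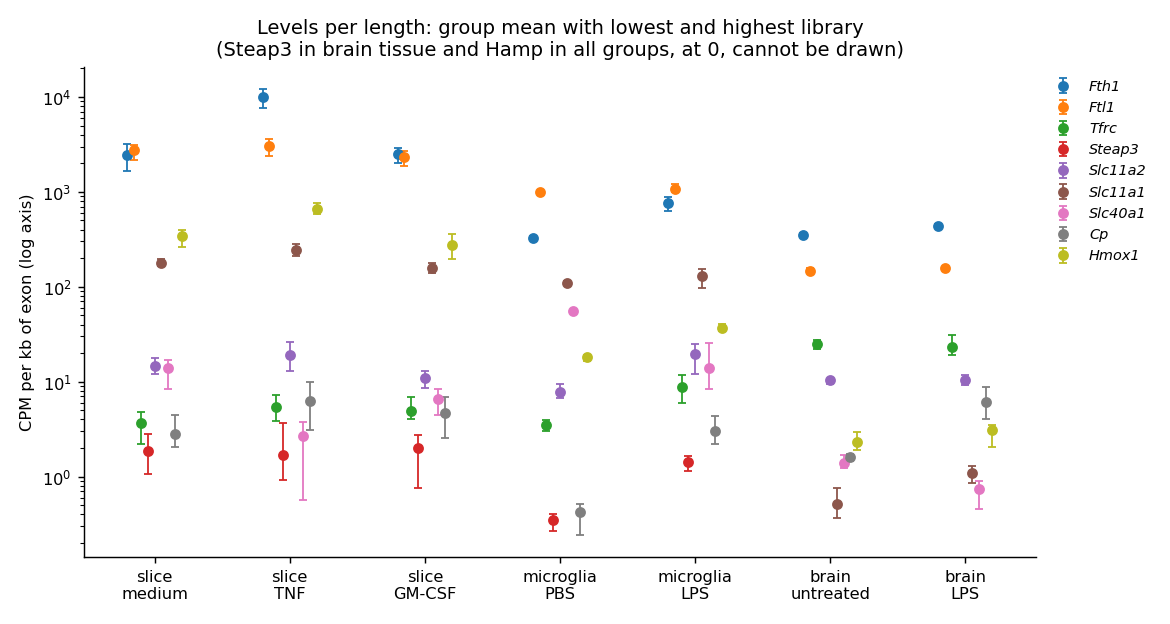
Mean level in CPM per kb of exon (vertical log axis) of 9 iron handling genes in the 7 groups, with whiskers from the lowest to the highest library. *Fth1* is above *Ftl1* in TNF slice microglia and in brain tissue and below it in adult microglia. The 2 overlap in medium and with GM-CSF. By counts, not per length, *Fth1* is above *Ftl1* in adult microglia after LPS (ratio 1.55 to 2.16). *Tfrc* is at rank 3 in both brain tissue groups. The tables differ in sequencing and, for tissue, in library kit, so only the order within a group is read.

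A wider list of 44 iron genes was read beside the 10. With TNF, 7 of 30 tested were called, 4 higher and 3 lower, against 20.8% of all genes (9.1% higher, 11.7% lower), and the list's median was log2 -0.12 beside -0.03 over all genes. *Hfe*, a hepcidin regulator, fell from 134 ± 13.1 CPM (SD, n = 9) to 29.8 ± 5.06 (n = 11), 4.49-fold (log2 -2.17, SE 0.10, edgeR adjusted p 2.52e-19). *Slc39a8*, a zinc and iron importer, fell by 1.70 on the log2 scale (SE 0.19) and *Trf*, the transferrin gene, by 1.02 (SE 0.16). *Alas1*, the first enzyme of heme synthesis, rose from 286 ± 19.9 to 684 ± 89.8 CPM (log2 1.26, SE 0.07), *Slc39a14*, an importer of iron not bound to transferrin, by log2 1.13 (SE 0.12), and *Slc25a37*, the mitochondrial iron importer, by log2 1.12 (SE 0.20). *Lcn2*, a siderophore-binding protein, rose from 1.85 ± 2.01 to 9.48 ± 5.19 CPM (log2 2.35, SE 0.53, adjusted p 0.00046). The 6 neutrophil markers summed to 0.834 to 15.6 CPM in medium and 3.57 to 116 CPM with TNF, and their part in this rise was not tested.

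With GM-CSF 2 of 30 were called, both lower: *Hfe* (54.9 ± 8.04 CPM, n = 9, log2 -1.29, SE 0.10) and *Slc46a1*, a heme and folate transporter (log2 -0.70, SE 0.10). Over all genes 10.8% were called, 5.96% lower. The list's median was log2 -0.15 beside -0.04 over all genes. *Hfe* was lower with TNF than with GM-CSF (log2 -0.88, called).

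In adult microglia LPS moved 5 of 29, 3 higher and 2 lower, against 27.4% of all genes (14.4% higher, 13% lower), with a list median of log2 0.15 beside 0.01 over all genes. *Slc39a14* rose from 34.6 ± 1.48 CPM (SD, n = 4) to 421 ± 126 (n = 4), 12.2-fold (log2 3.61, SE 0.22, edgeR adjusted p 4.4e-06), and *Lcn2* from 3.49 ± 1.07 to 43.7 ± 29.8 CPM (log2 3.65, SE 0.76, adjusted p 0.00557). *Slc39a8* rose by log2 0.66 (SE 0.13), where it had fallen with TNF in slices. *Ncoa4*, the receptor that takes ferritin to lysosomes, fell from 261 ± 16.5 to 156 ± 7.07 CPM (log2 -0.74, SE 0.07) and *Fech*, the last enzyme of heme synthesis, by 0.64 (SE 0.10).

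In brain tissue 4 of 36 were called, all higher, against 3.18% of all genes (2.63% higher), and the list's median was log2 0.04 beside 0.00 over all genes. *Lcn2* was at 0 to 0.310 CPM untreated and at 39.7 to 179 CPM after LPS (log2 9.07, SE 1.28, edgeR adjusted p 0.00734), a fitted value that depends on the prior count because the untreated level is close to 0. *Cd163*, a receptor for hemoglobin on border macrophages, rose by log2 0.89 (SE 0.25), *Cybrd1*, a ferric reductase, by log2 0.80 (SE 0.22) and *Heph*, a ferroxidase related to ceruloplasmin, by log2 0.71 (SE 0.18). The sensors *Aco1*, *Ireb2* and *Fbxl5* were tested in all 4 comparisons and 0 of 3 were called in each by edgeR. Of the 3, 1 passed the adjusted p alone with TNF and 1 with GM-CSF, and 2 did in adult microglia. Of all genes tested, 4476 of 11313, 2892 of 11313 and 6703 of 12987 passed it in the same order.

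The genes with the most similar pattern over the 4 treatments were found by the Euclidean distance between their 4 log2 fold changes, among 9700 genes tested in all 3 tables. For *Fth1* these were *Mmp14* (distance 0.245) and *Nfkbia* (0.2799). For *Hmox1* they were *Sdc4* (0.142) and *Susd6* (0.270). For *Slc40a1* the nearest were farther away, *Klhl23* (0.744) and *Nrep* (0.809), as for *Cp*, with *Map3k6* (0.690) and *Treml2* (0.732). These distances describe 4 values a gene, of which 2 share the medium libraries.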

How the data were processed

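RNA sequencing of 29 slice microglia, 8 adult microglia and 8 brain tissue samples was read from 3 tables. The slice table holds raw counts, whole numbers for each gene, as deposited. For adult microglia and brain tissue the authors deposited expected counts, which are estimated and need not be whole, and these were rounded (0.00107% and 0.00113% change of the totals). Per the submitters' processing notes the build was mm10, with STAR 2.7.0a and featureCounts of Subread 1.6.4 for slice microglia; no source used here gives the tools for the other tables or the use of strand. Reads shared by overlapping genes or near-identical copies are therefore uncertain, and 92 rows of the brain table that name no gene (0 counts) were left out. Columns without a sample numbered 0.

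The quasi-likelihood test of edgeR 4.0.16 under R 4.3.3 gave all differences (TMM scaling, robust fit, filter at 10 counts and 15 in total), adjusted by Benjamini and Hochberg over all genes of a comparison, and called at an adjusted p under 0.05 and over 1.5-fold, the study's thresholds. The fits were run on simulated counts with the same spread for all genes and no structure by experiment or title code. That run does not cover such structure. Slice samples were fitted together, and the interaction joined both in vivo tables, in which kit and tissue cannot be told apart beyond a constant factor. CPM are TMM-scaled, errors are SD, and exon lengths are those of GENCODE M21. Libraries of a group differed by more than sampling noise (chi-square per degree of freedom of 1.78 to 39.5). The study's legends give the in vivo samples as independent mice, and the slice samples as pools of independently treated slices from 4 experiments. The sources used here do not tie slice samples to experiments, so p-values there measure the spread between these pools. Counting limits cover counting error only.

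The members, the wider list of 44 genes and the cell markers were chosen with earlier results of these data known. Named are the 10 members, wider-list genes called in any treatment (at most 8 each, by p), and the 2 nearest genes of members called in 2 or more treatments. Alternatives were RLE and total-count scaling, other filters, DESeq2 1.42.0, limma-voom 3.58.1, no fold limit, blocks, title codes and leaving out each in vivo library.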

Additional observations from a re-analysis of the deposited data

Results flagged for a closer look

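In 52 sets of a member and a group with 4 to 10 libraries, 3 libraries stood far from the rest of their group, where chance gives about 1 in 20. *Slc11a2* was at 59.9 CPM in brain untreated replicate 3, below the other 3. *Slc11a1* was at 429.5 CPM in adult PBS replicate 1, above the other 3. *Hmox1* was at 3.59 CPM in brain LPS replicate 1, below the other 3, and without this library the LPS effect on *Hmox1* in tissue was log2 0.56 and still not called (edgeR adjusted p 0.0762).

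The LPS effect differed between adult microglia and brain tissue in the interaction test for *Fth1* (0.92 log2 units), *Tfrc* (1.44), *Slc11a2* (1.30) and *Hmox1* (0.61), each larger in microglia, and for *Slc11a1* (-0.84), larger in tissue. The calls of *Hmox1* and *Slc11a1* were lost on leaving out certain single libraries, named with these genes above. The tissue controls were not injected and the kits differ, so tissue, kit and control treatment cannot be told apart in this test.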

How the results depend on the processing

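The number of members called stayed within 1.5 times the reported one in 89 of 95 alternatives. Without the fold limit it was 7 for TNF, where 4476 of all 11313 genes passed, and 7 for GM-CSF, where 2892 did. With codes 1A and 1B alone the number was 1 for GM-CSF, where 1216 of all 11466 genes were called. Leaving out single libraries gave 7 for adult microglia and 3 for brain tissue each time and 3 to 6 for the interaction, with 3 without adult LPS replicate 4, brain untreated replicate 1 or brain untreated replicate 4. Over all genes those fits called 3373 to 4044, 412 to 543 and 3116 to 3663. Signs turned for members that were not called: with codes 2A and 2B alone *Steap3* was 0.00857 with TNF, -0.0482 with GM-CSF and 0.0568 in TNF against GM-CSF, *Fth1* was -0.13 with GM-CSF and *Tfrc* -0.0312 in TNF against GM-CSF, which was -0.0316 with total-count scaling. Left-out libraries gave *Slc11a2* -0.0347 to 0.0800 in brain tissue and *Ftl1* -0.0401 to 0.0473 in the interaction, which was -0.0155 with RLE scaling and -0.0154 with DESeq2. The cause was not tested. The interaction of *Hmox1* lost its call with RLE scaling (0.58), DESeq2 (0.58) and limma-voom (0.63), and that of *Slc11a1* without a low-count filter (-0.81) and with limma-voom (-0.89). For *Steap3*, at 0 in tissue, edgeR's interaction could not be estimated, while limma-voom gave 1.85 and called it. Libraries of the same replicate number deviated with r of 0.0414 to 0.211 for TNF (7 of 9 over 0.1) and 0.0129 to 0.163 for GM-CSF. In adult microglia r was -0.0639 to 0.0368 and in tissue -0.0811 to 0.0378. The replicate numbers were not taken to pair samples. In slices some join different title codes, such as medium replicate 5 (2A) and TNF replicate 5 (1B). Pairing by the running numbers in the titles was not tested. A replicate block gave 4, 2, 5, 7, 3 and 4 members in TNF, GM-CSF, TNF against GM-CSF, adult microglia, tissue and interaction, losing *Hmox1* in the last. Over all genes the block called 2423, 1258, 1828, 3452, 448 and 3222. Depth limits *Hamp*, *Steap3* in microglia, and in tissue *Slc11a1*, *Hmox1* and *Slc40a1*. For *Steap3* in tissue, and *Hamp* in adult microglia and tissue, a failed estimate cannot be told apart from a low level.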
